A study of Mus musculus with 12 samples.

Results

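The Serpina3 gene cluster was examined in the livers of mice that were obese before sleeve gastrectomy or sham surgery. Its 8 members were taken by symbol from the 46078 genes of the count table: Serpina3c, Serpina3f, Serpina3g, Serpina3h, Serpina3i, Serpina3k, Serpina3m and Serpina3n. Another 6 genes whose names begin with Serpina3 were in the table, and none of them passed the filter on low counts. All 12 mice were C57BL/6 by the labels (C57BL/6J in the study's methods) and 21 weeks old, and each liver gave 1 library of poly(A) RNA. By the study's methods, a high-fat diet had made the mice obese before surgery, and they went back to it afterwards. The 4 VSG mice had sleeve gastrectomy, which removes most of the stomach. The other two groups had a sham operation: the 4 Sham-WM mice were then fed less, so that they weighed as much as the VSG mice, and the 4 Sham-Ad lib mice ate freely. All 3 groups therefore had an operation, and no unoperated mice were analysed here. The study reports that the VSG and Sham-WM mice lost weight and ended near the weight of mice kept on standard chow.

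Serpina3 genes encode serpins of clade A, which trap serine or cysteine proteases by offering them a reactive loop that is cut and then locks the enzyme in place. Humans have a single SERPINA3 gene, which encodes the plasma protein alpha-1-antichymotrypsin, an acute phase protein of hepatocytes. In the mouse this locus has expanded into a row of similar genes whose reactive loops differ. Serpina3k, also known as contrapsin, and Serpina3m are abundant liver products, and Serpina3n is an acute phase gene of liver, brain and other tissues that inhibits granzyme B and neutrophil proteases. Serpina3g, also known as Spi2A, is an intracellular inhibitor of cathepsins that is known from white blood cells. The acute phase is the change in the liver's secreted proteins during inflammation, driven mainly by interleukin 6 through STAT3, with help from glucocorticoid and NF-kB.

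The libraries held between 15122520 and 19384076 counts. Animal numbers, which occur both in library names and in sample titles, gave each library its group. The labels have a further field that pairs samples with libraries differently, and under that pairing 4 of the 12 libraries would stay in their group. The numbers that end the library names were consecutive within each group. The labels do not say what they stand for, and anything that ran with them cannot be told apart from the treatment. Each library is 1 mouse, so p-values rest on the spread between mice within groups. In the fitted tests this spread was estimated from all 12 libraries together, drawing also on other genes.

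The cluster lay on chromosome 12 of mm10. In GENCODE M21, the 14 genes named Serpina3 ran from 104112724 to 104414329, and 10 of them were protein-coding and 4 pseudogenes. Serpina3c, on the minus strand, lay at chr12:104146382-104153870. The other members were on the plus strand: Serpina3f at chr12:104214544-104221129, Serpina3g at chr12:104236245-104241939, Serpina3h at chr12:104247905-104253669, Serpina3i at chr12:104263122-104269372, Serpina3k at chr12:104338486-104346144, Serpina3m at chr12:104338486-104394257 and Serpina3n at chr12:104406729-104414329. Serpina3h is annotated as a transcribed pseudogene. The gene records of Serpina3k and Serpina3m share their start and 60 exon bases. These bases are 2.92% of the exon bases of Serpina3k and 3.49% of those of Serpina3m. Serpina3m has 2 annotated transcripts, and which of them was used in these livers was not tested.

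The members are close relatives in sequence. Between their longest transcripts, identity was highest for Serpina3h and Serpina3i, at 91.5% over 1205 aligned bases, and for Serpina3k and Serpina3m, at 90.9% over 1652. Serpina3f and Serpina3g were identical at 88.6% of 1783 aligned bases, and each was between 74.9% and 80.3% identical to Serpina3k, Serpina3m and Serpina3n. Exact repeats long enough to hold a read were rarer. Of the windows of 100 bases in each gene's transcripts, 6.09% in Serpina3m and 4.85% in Serpina3k also occurred in the other, while the share was 3.49% in Serpina3g, 3.40% in Serpina3f, 3.60% in Serpina3h, 2.25% in Serpina3i, 0.204% in Serpina3n and 0 in Serpina3c. How reads with more than 1 location were counted is not given in the sources used here, so part of the counts of these pairs is uncertain. A small share of a high gene can be a large share of a low one. Serpina3k had 1559930 counts over all libraries and Serpina3m 89177. How much of the Serpina3m counts could come from Serpina3k was not tested.

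Promoter windows, taken from 250 bases before to 50 after each RefSeq start (GRCm38.p6), were given for 5 members, with a pair of starts for Serpina3f, and so made 6 windows. Both Serpina3f windows share 211 bases, and their motif matches below are counted once per gene. They fell into alike sets. The windows of Serpina3c and Serpina3n were identical at 93.5% of 294 aligned bases, and those of Serpina3f, Serpina3g and Serpina3i were 79.7% to 86.3% identical to one another. Serpina3c or Serpina3n against Serpina3f, Serpina3g or Serpina3i gave 68.6% to 73.5%. The stretches below are shown because they hold the matches to the motifs of acute phase factors and let the sets be compared. Capitals mark matches to the STAT motif TTCNNNGAA, to the NF-kB motif and to ACANNNTGT, the spaced half-sites of the glucocorticoid receptor. The stretches are chr12:104214414-104214503 for Serpina3f, chr12:104236047-104236136 for Serpina3g, chr12:104262962-104263081 for Serpina3i and chr12:104406578-104406667 for Serpina3n on the plus strand, and chr12:104153913-104154002 for Serpina3c on the minus strand.
Serpina3f: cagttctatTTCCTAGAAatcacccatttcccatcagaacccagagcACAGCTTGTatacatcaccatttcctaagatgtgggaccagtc
Serpina3g: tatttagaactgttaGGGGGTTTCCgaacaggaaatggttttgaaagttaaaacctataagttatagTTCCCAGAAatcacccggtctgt
Serpina3i: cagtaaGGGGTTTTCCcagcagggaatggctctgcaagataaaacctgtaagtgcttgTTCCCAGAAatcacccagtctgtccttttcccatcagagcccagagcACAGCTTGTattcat
Serpina3n: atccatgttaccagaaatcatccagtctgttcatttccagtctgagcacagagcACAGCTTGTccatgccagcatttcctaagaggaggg
Serpina3c: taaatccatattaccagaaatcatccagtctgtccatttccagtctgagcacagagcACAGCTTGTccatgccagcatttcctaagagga

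The STAT motif stood in the windows of 3 of the 5 members: Serpina3f, at TTCCTAGAA, and Serpina3g and Serpina3i, at TTCCCAGAA. Over all 32817 RefSeq promoter windows of this length, 8.29% held it on either strand. It was not found in the windows of Serpina3n and Serpina3c. The spaced half-sites stood in 4 of the 5 members, each time as ACAGCTTGT, against 6.85% of all windows, and Serpina3g was the one without it. The NF-kB motif was found in Serpina3g and Serpina3i, against 4.50% of all windows. Searched on both strands as well, the C/EBP motif TTGCNNAA was in Serpina3f (10.8% of all windows), TATAAA in Serpina3f and Serpina3c (13.6%), and the interferon-stimulated response element (ISRE) in none (3.43%). The HNF1 motif was in none either, against 0.00914% of all windows. Because the members' windows are alike in sequence, their matches are not independent, and the shares over all windows are no test of them. A match is a description of these letters and no measure of binding.

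Levels were compared between genes as counts scaled to library size (CPM) per kilobase of exon, averaged over the 12 libraries. Serpina3k, at 3578, was the highest and stood 14th of the 45143 genes with a known length. Serpina3n was 128th at 367 and Serpina3m 207th at 239.8. Serpina3g came 5376th at 4.25 and Serpina3f 8194th at 1.71, both far under Serpina3k. Serpina3h, Serpina3i and Serpina3c followed at 0.159, 0.117 and 0.0332. The ranges of Serpina3f and Serpina3g over mice overlapped, but within each library Serpina3f reads were 30.9% to 53.5% of Serpina3g reads. Serpina3n and Serpina3m changed places between groups. In Sham-WM livers Serpina3n was at 201 ± 19.4 CPM per kb and Serpina3m at 266 ± 45.2 (mean ± SD, n = 4), and Serpina3m was the higher in 3 of the 4 libraries. In the 8 Sham-Ad lib and VSG libraries Serpina3n was always the higher. Serpina3h and Serpina3i could not be ordered beyond their spread. Serpina3c, whose promoter letters are nearly those of Serpina3n, was the lowest.

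**Figure D1:**
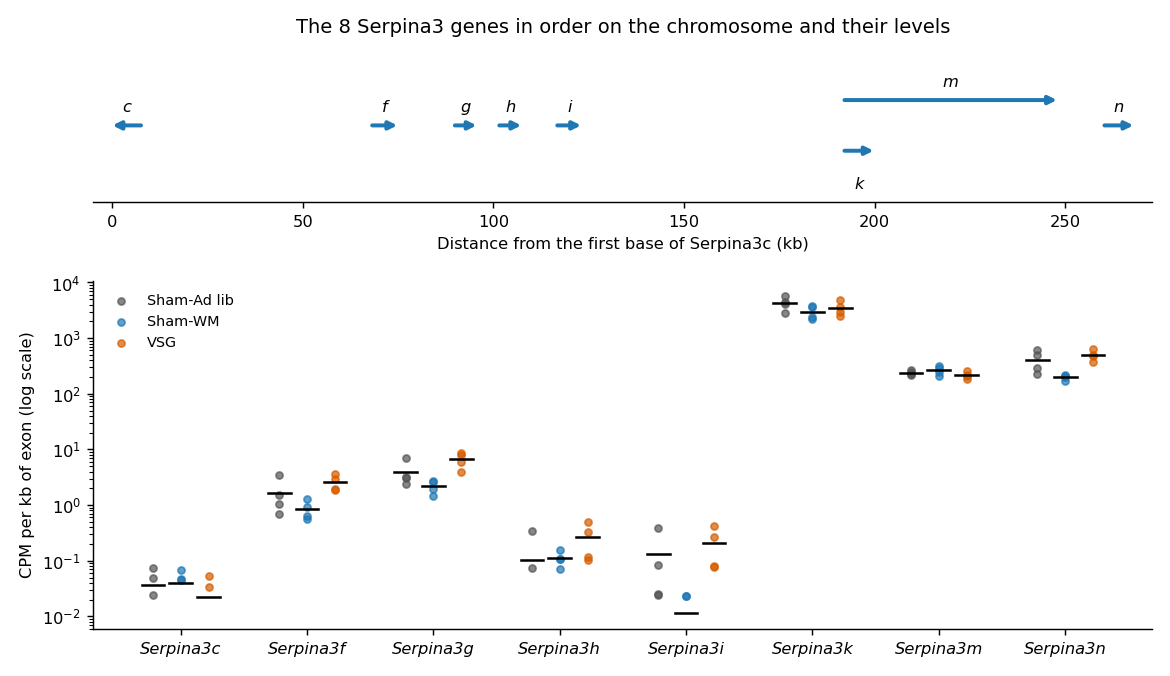
The upper panel shows the 8 Serpina3 genes as arrows in the direction of transcription, against the distance in kb from the first base of Serpina3c. The lower panel shows CPM per kb of exon on a log scale, with 1 point per library, coloured by group, and a black bar at the group mean; libraries at 0 have no point but count in the mean. Serpina3k is at the top with a mean of 3578 over all libraries, and Serpina3c is at the bottom with 0.0332.

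The 8 genes together took between 0.570% and 1.25% of all counts of a library. Serpina3k alone made up 78.3% to 91.5% of the counts of the cluster. Its counts were the denominator for a simple ratio within each library: Serpina3n reads were 5.13% of Serpina3k reads in 3F and 21.2% in 1F, the lowest and the highest of the 12. In VSG livers this ratio was 21.2% in 1F, 13.5% in 8F, 10.1% in 11F and 14.7% in 18F. In Sham-WM livers it was 5.61% in 2F, 6.09% in 9F, 7.70% in 15F and 8.57% in 16F. The VSG ratios were thus all above the Sham-WM ratios, and the Sham-Ad lib ratios, between 5.13% and 17.4%, overlapped both.

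Serpina3n, the acute phase member, was higher in every VSG liver than in every food-restricted one. In Sham-Ad lib it was at 468 CPM in 3F, 1024 in 4F, 597 in 6F and 1254 in 10F. In Sham-WM it was at 433 in 2F, 447 in 9F, 356 in 15F and 419 in 16F. In VSG it was at 1314 in 1F, 1007 in 8F, 988 in 11F and 772 in 18F. All Sham-WM values lay below all values of both other groups, while Sham-Ad lib mice spread from near the Sham-WM level to near the VSG maximum. Sham-Ad lib averaged 836 ± 366 CPM, Sham-WM 414 ± 40.0 and VSG 1020.1 ± 223 (SD, n = 4 each).

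Serpina3g, the intracellular cathepsin inhibitor, was present at a far lower level and followed a like order. In Sham-Ad lib it was at 6.47 CPM in 3F, 14.7 in 4F, 5.08 in 6F and 6.65 in 10F. In Sham-WM it was at 5.65 in 2F, 5.58 in 9F, 4.18 in 15F and 3.09 in 16F. In VSG it was at 18.4 in 1F, 16.5 in 8F, 12.7 in 11F and 8.30 in 18F. Every VSG liver was above every Sham-WM liver, and Sham-Ad lib mouse 4F stood with the VSG mice. Sham-Ad lib averaged 8.23 ± 4.40 CPM, Sham-WM 4.62 ± 1.23 and VSG 14.0 ± 4.47 (SD, n = 4 each).

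Serpina3f, the neighbour of Serpina3g, rested on 23 to 147 counts per library. In Sham-Ad lib it was at 3.46 CPM in 3F, 7.88 in 4F, 1.57 in 6F and 2.44 in 10F. In Sham-WM it was at 2.90 in 2F, 2.15 in 9F, 1.48 in 15F and 1.29 in 16F. In VSG it was at 8.30 in 1F, 6.84 in 8F, 4.21 in 11F and 4.43 in 18F. The VSG and Sham-WM mice again did not overlap, and mouse 4F was again high among the Sham-Ad lib mice. The means were 3.84 ± 2.80, 1.96 ± 0.730 and 5.95 ± 1.97 CPM (SD, n = 4 each). Across the 12 libraries, log2 CPM of Serpina3f and Serpina3g had a Pearson r of 0.956 and a Spearman rho of 0.965. Serpina3g and Serpina3n had 0.825 and 0.867, and Serpina3f and Serpina3n 0.734 and 0.769. These libraries span 3 groups and share their group differences, so the correlations are a description.

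Serpina3k, the contrapsin that dominates the cluster, ranged widely within each group. In Sham-Ad lib it was at 9130 CPM in 3F, 5900 in 4F, 8438 in 6F and 11559 in 10F. In Sham-WM it was at 7723 in 2F, 7338 in 9F, 4630 in 15F and 4887 in 16F. In VSG it was at 6187 in 1F, 7477 in 8F, 9808 in 11F and 5243 in 18F. The 3 groups overlapped, with means of 8757 ± 2328, 6145 ± 1612 and 7179 ± 1978 CPM (SD, n = 4 each). Its r with Serpina3f was 0.064 and with Serpina3n 0.348 over the 12 libraries.

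Serpina3m, whose gene record has the same start as that of Serpina3k, varied little between mice. The SD of Serpina3m was 9.21% of the Sham-Ad lib mean, 17.0% of the Sham-WM mean and 13.3% of the VSG mean. Among Sham-WM mice that of Serpina3n was smaller, at 9.66%. In Sham-Ad lib Serpina3m was at 372 CPM in 3F, 385 in 4F, 455 in 6F and 424 in 10F. In Sham-WM it was at 422 in 2F, 366 in 9F, 501 in 15F and 539 in 16F. In VSG it was at 371 in 1F, 438 in 8F, 321 in 11F and 353 in 18F. The groups overlapped here too, with means of 409 ± 37.7, 457 ± 77.7 and 371 ± 49.5 CPM (SD, n = 4 each). Its r was -0.614 with Serpina3f and -0.459 with Serpina3n over the 12 libraries.

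**Figure D2:**
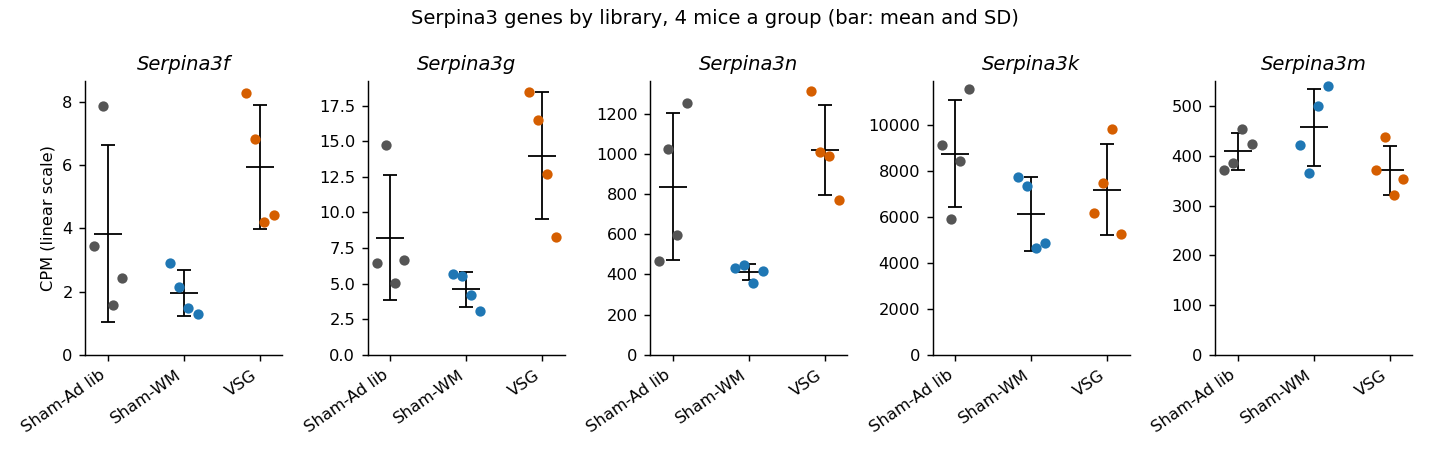
Each panel shows 1 of the 5 tested Serpina3 genes, with CPM on a linear axis from 0 and 1 point per mouse for each group (n = 4); the bars give the mean and SD. The VSG points of Serpina3f, Serpina3g and Serpina3n lie above all Sham-WM points, while the groups of Serpina3k and Serpina3m overlap.

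The 3 remaining members, Serpina3c, Serpina3h and Serpina3i, failed the filter on low counts. Serpina3c had 0 to 3 counts in a library, at or under a floor of 3 counts, which is at most 0.198 CPM, and 4 libraries were at 0. The pseudogene Serpina3h had 0, 9, 2 and 0 counts in Sham-Ad lib, 3, 2, 3 and 4 in Sham-WM, and 8, 14, 2 and 3 in VSG. Serpina3i had 1 count in 3F, 16 in 4F, 1 in 6F and 3 in 10F among the Sham-Ad lib mice, and 3 in 1F, 18 in 8F, 8 in 11F and 3 in 18F among the VSG mice. Its Sham-WM counts were 1, 1, 0 and 0. The VSG counts of Serpina3i were thus all above those of Sham-WM, and mouse 4F was the high one in Sham-Ad lib, as for its neighbours Serpina3f and Serpina3g. Both neighbours had more counts than Serpina3i in every library. Of the transcript windows of Serpina3i, 2.25% also occurred in Serpina3f, Serpina3g or Serpina3h. The part of reads from these genes in the Serpina3i counts, and so in the likeness and the call below, was not tested. With no filter on low counts, Serpina3i passed in VSG against Sham-WM with an adjusted p of 0.0179 (edgeR's quasi-likelihood test), on counts this small, and DESeq2 called it too. No group of these 3 genes reached a mean of 10 counts, so no fold change is given for them.

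The comparison of VSG with Sham-WM asks what differed after sleeve gastrectomy at a matched body weight. Serpina3f, Serpina3g and Serpina3n were higher in VSG, and neither Serpina3k nor Serpina3m passed the test. Serpina3g was 3.02-fold higher, with a log2 fold change of 1.59 ± 0.34 (SE) and an adjusted p of 0.00573 by edgeR's quasi-likelihood test with Benjamini-Hochberg adjustment over 13054 genes. Serpina3n was 2.46-fold higher (1.30 ± 0.27, adjusted p = 0.00492), and Serpina3f 3.03-fold (1.60 ± 0.44, adjusted p = 0.0193). For each of the 3, all 4 VSG mice were above all 4 Sham-WM mice, and the exact two-sided permutation test of mean CPM gave p = 0.0286, the smallest that 4 against 4 allows.

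So 3 of the 5 tested members were called higher in VSG than in Sham-WM, where 15.0% of all genes tested were, and 3 of 5 did not overlap, where 26.2% of all genes did not. The median log2 fold change was 1.30 over the tested members and 0.03 over all genes. The calls of Serpina3g and Serpina3n held in all 12 fits that left out 1 library. That of Serpina3f held in 9 of the 12, and was lost without Sham-WM mouse 15F (adjusted p = 0.0584), Sham-WM mouse 16F (adjusted p = 0.0598) or VSG mouse 1F (adjusted p = 0.0559). The 12 fits include 4 that left out a Sham-Ad lib mouse, which is in neither group compared here, and these kept all 3 calls. Grouped by the second label field, no member was called, and the log2 fold changes of Serpina3f, Serpina3g and Serpina3n were 0.048, -0.11 and -0.042. For Serpina3k the log2 fold change was 0.22 with a 95% interval of -0.33 to 0.78, or 0.795-fold to 1.72-fold (adjusted p = 0.543). For Serpina3m it was -0.30 with an interval of -0.61 to 0.0080, or 0.655-fold to 1.01-fold (adjusted p = 0.133).

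The comparison of Sham-WM with Sham-Ad lib asks what food restriction and the weight loss it brings did after sham surgery. Serpina3n was the one member called, and it was lower in Sham-WM. Its log2 fold change was -1.01 ± 0.27 (SE, adjusted p = 0.0373), so that its level in Sham-WM was 0.495 of that in Sham-Ad lib, and its groups did not overlap (exact permutation p = 0.0286). The call was lost in 6 of the 12 fits that left out 1 library, those without 4F, 10F, 2F, 9F, 15F or 16F. Over all 12, the adjusted p was 0.0166 to 0.118. The fits that kept the call included all 4 that left out a VSG mouse, which is in neither group compared here. Grouped by the second label field, the log2 fold change of Serpina3n was 0.028 and no member was called. Serpina3f, at -0.97 ± 0.45, and Serpina3g, at -0.83 ± 0.34, had fitted values of a like size with adjusted p of 0.226 and 0.172, and their groups overlapped. Serpina3k was at -0.51 with a 95% interval of -1.07 to 0.05 (adjusted p = 0.276), and Serpina3m at 0.16 with -0.15 to 0.47 (adjusted p = 0.570). Over all genes, 3.45% were called lower and 3.53% higher in this comparison, and 17.6% did not overlap, beside 1 of the 5 members for both. The median was -0.83 over the tested members and 0.00078 over all genes.

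The comparison of VSG with Sham-Ad lib asks how livers after sleeve gastrectomy differed from those of mice that stayed obese. No member was called by edgeR or by DESeq2, and 1 of the 5, Serpina3g, had an unadjusted p under 0.05. The fitted log2 fold changes were 0.76 ± 0.33 for Serpina3g (adjusted p = 0.183), 0.63 ± 0.42 for Serpina3f (adjusted p = 0.375) and 0.29 ± 0.27 for Serpina3n (adjusted p = 0.523). Serpina3k was at -0.29 with a 95% interval of -0.84 to 0.27, and Serpina3m at -0.14 with -0.45 to 0.17. Calls were rare among all genes as well: 0.751% were called, 0.467% higher, and 9.21% did not overlap. The outcome for Serpina3g turned on Sham-Ad lib mouse 4F. Without this mouse, Serpina3g was called, at a log2 fold change of 1.20 and an adjusted p of 0.0234. Serpina3f then reached 1.26 with an adjusted p of 0.0534 and was not called. This comparison shares its Sham-Ad lib mice with that of Sham-WM, so the members' values in both stand side by side and are not independent.

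**Figure D3:**
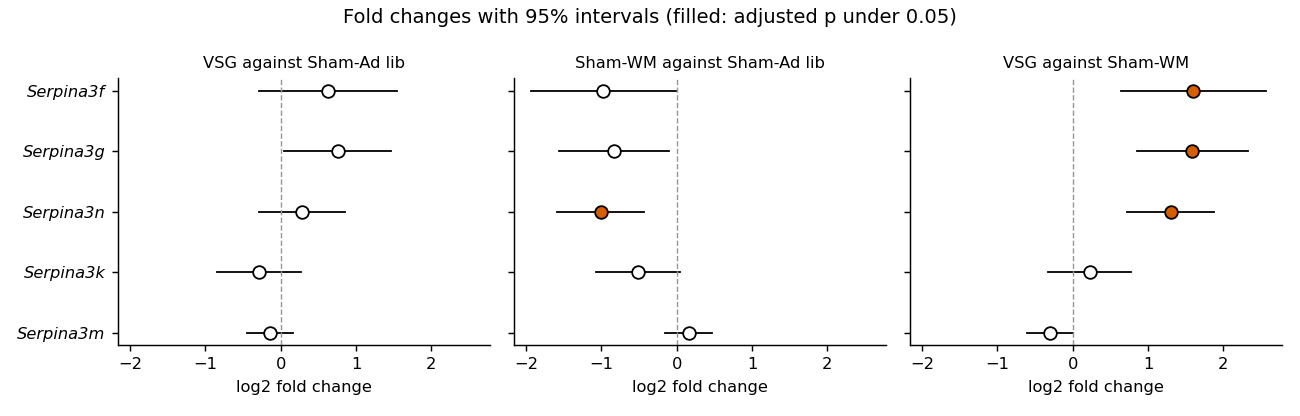
The 3 panels show log2 fold changes of the 5 tested Serpina3 genes from edgeR's fit, as points with 95% intervals, for each comparison, named above its panel; filled points have an adjusted p under 0.05. Filled points are Serpina3n at -1.01 in the middle panel and Serpina3f, Serpina3g and Serpina3n at 1.60, 1.59 and 1.30 in the right panel, and the left panel has none.

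White blood cell markers moved with these genes. All 8 markers of Kupffer cells or other macrophages were called higher in VSG than in Sham-WM, Clec4f, a lectin of Kupffer cells, by 3.10-fold (adjusted p = 0.00155) and Cd5l, a secreted macrophage protein, by 4.49-fold (adjusted p = 0.00309). Their summed level was 146 to 467 CPM in Sham-Ad lib, 129.8 to 224 in Sham-WM and 476 to 1328 in VSG. Of 8 neutrophil markers, 6 were tested and all 6 were called higher in VSG. Beside both of these counts, 15.0% of all genes tested were called higher in VSG than in Sham-WM. S100a9, which encodes a subunit of calprotectin, had a mean of 0.611 ± 0.308 CPM in Sham-WM and of 130 ± 140 in VSG. The 8 neutrophil markers summed to 0.649 to 13.7 CPM in Sham-Ad lib, 1.57 to 2.49 in Sham-WM and 28.2 to 905 in VSG.

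Mouse by mouse, the marker sums had the same order within VSG as Serpina3g and Serpina3n. The neutrophil sum was 905 CPM in 1F, 374 in 8F, 122 in 11F and 28.2 in 18F. In the same mice, the macrophage sum was 1328, 715, 630.3 and 476. Serpina3f did not keep this order, at 4.21 CPM in 11F and 4.43 in 18F. Within Sham-WM the orders differed: the macrophage sum was highest in 15F, at 224 CPM, and Serpina3g in 2F, at 5.65. Sham-Ad lib mouse 4F had the highest of both sums among the 8 sham-operated mice, 13.7 and 467 CPM. Outside VSG, Serpina3n was highest in Sham-Ad lib mouse 10F, where the neutrophil sum was 2.32 and the macrophage sum 165. The part of these cells in the levels of Serpina3f, Serpina3g and Serpina3n was not tested. In bulk liver, more or fewer cells of a type and more or less RNA per cell cannot be told apart.

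For other cell types, a smaller share of the tested markers was called. The summed B or plasma cell markers still did not overlap between VSG and Sham-WM, with medians of 39.6 and 11 CPM. Over all genes, 15.0% were called higher and 11.9% lower in this comparison. Of the tested markers, 2 of 4 for T or NK cells and 3 of 5 for B or plasma cells were called higher in VSG than in Sham-WM, with sums of 5.04 to 9.43 and 35.4 to 99.9 CPM in VSG against 2.55 to 6.21 and 8.49 to 25.8 in Sham-WM. Of 6 endothelial markers, 1 was called lower. Of 7 hepatocyte markers, 2 were called lower, albumin (Alb) at 0.603-fold (adjusted p = 0.0294) and Cps1, the entry enzyme of the urea cycle, at 0.564-fold (adjusted p = 0.0174). The 7 hepatocyte markers summed to 110100 to 132500 CPM in Sham-Ad lib, 129200 to 161100 in Sham-WM and 85900 to 130100 in VSG, with medians of 127000, 143000 and 89600, so the defining genes of liver were abundant in every library. The sums of 3 VSG mice lay below those of all sham-operated mice, and 18F overlapped both sham groups. The part of this shift in the results was not tested.

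**Figure D4:**
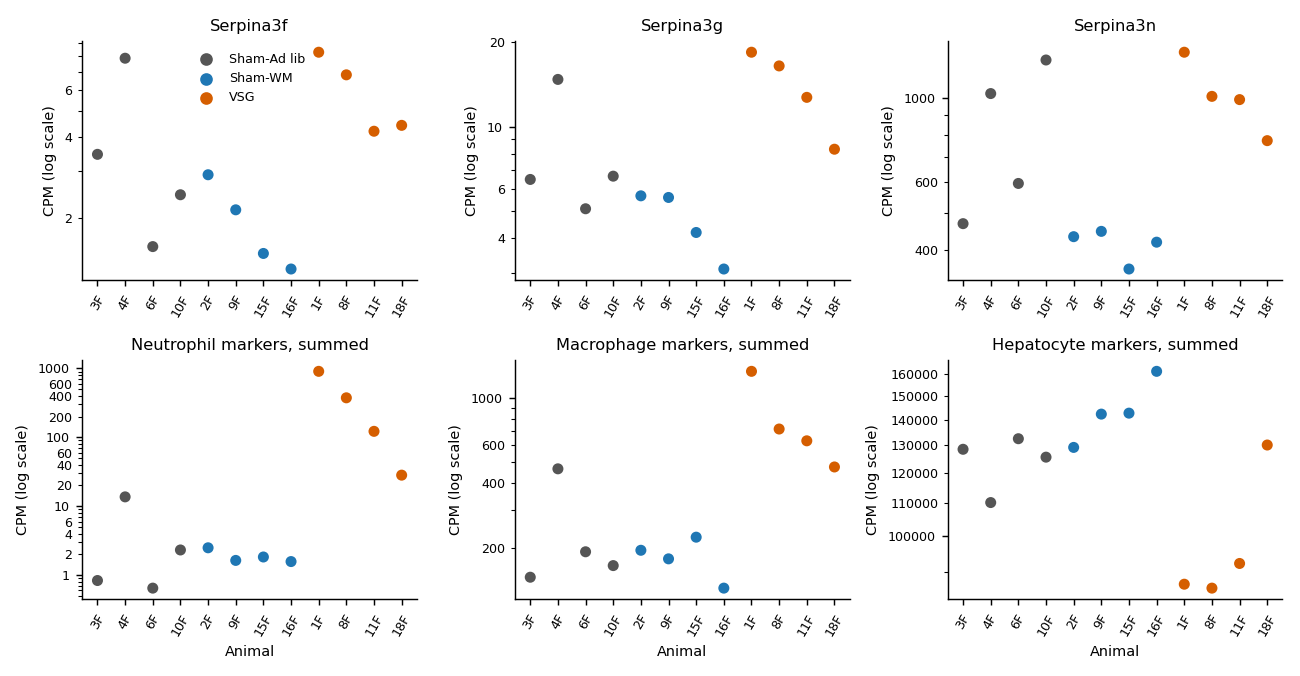
The 6 panels show Serpina3f, Serpina3g, Serpina3n and the summed markers of neutrophils, macrophages and hepatocytes for each of the 12 mice, in CPM on log axes, coloured by group. Serpina3g, Serpina3n, the neutrophil sum and the macrophage sum fall in the order 1F, 8F, 11F, 18F within VSG, and mouse 4F is the highest of the Sham-Ad lib mice in Serpina3f, Serpina3g and both of these sums.

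The acute phase list gave the setting of Serpina3n in these livers. All 24 of its genes were tested and 21 were called higher in VSG than in Sham-WM, with a median log2 fold change of 2.17, where 15.0% of all genes were called higher. Il1rn, the interleukin 1 receptor antagonist, was 11.8-fold higher (adjusted p = 0.000413), Orm3, an acid glycoprotein, 11.8-fold (adjusted p = 0.00150), and Saa4, a constitutive serum amyloid A, 3.76-fold (adjusted p = 0.00152). Itih4, Crp and C3 were not called. Against Sham-Ad lib, 2 of the 24 were called higher in VSG, where 0.467% of all genes were. In Sham-WM, 3 of the 24 were called lower than in Sham-Ad lib, where 3.45% of all genes were. The 2.46-fold difference of Serpina3n between VSG and Sham-WM was thus smaller than those of these 3 named genes. It lay within the range of the 21 called genes, from 1.88-fold for Fga to 224-fold for Saa2. Summed over the list, the level in VSG was 133000 CPM in 1F, 109300 in 8F, 106400 in 11F and 45560 in 18F. In Sham-Ad lib the sum was 77600 in 10F, 69210 in 4F, 34590 in 6F and 30180 in 3F. Serpina3n had the same order in both groups. Within Sham-WM the sum was lowest in 2F, at 31710, and Serpina3n in 15F, at 356. What this likeness rests on was not tested.

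Genes of the pathways whose motifs were searched in the promoters changed in part. Over all genes, 15.0% were called higher in VSG than in Sham-WM. Of 13 tested genes of interleukin 6 and STAT3 signalling, 4 were called higher in VSG than in Sham-WM: the receptor gene Il6ra by 1.66-fold, the feedback inhibitor Socs3 by 3.43-fold, and the transcription factors Cebpd by 3.11-fold and Junb by 4.01-fold, with adjusted p of 0.0107, 0.0365, 0.0125 and 0.0107. Stat3 itself was not called. Of 9 tested NF-kB genes, 5 were called higher, among them the inhibitor Nfkbia by 2.05-fold (adjusted p = 0.00107). Of 19 interferon genes, 9 were called higher, such as Irf7, a transcription factor of the interferon response, by 2.14-fold (adjusted p = 0.00173), and Tap1, a peptide transporter of antigen presentation, by 1.89-fold (adjusted p = 0.000611).

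In the glucocorticoid list, 13 genes were tested, and VSG against Sham-WM had 3 called higher and 1 lower. Over all genes, 15.0% were called higher and 11.9% lower in this comparison. The higher ones were Klf9, a transcription factor, at 1.41-fold (adjusted p = 0.0427) and the metallothioneins Mt1 and Mt2, which bind zinc and also respond to metals and inflammation. Mt1 had means of 5.89 ± 2.92 CPM in Sham-WM and 593 ± 150 in VSG, and Mt2 of 2.15 ± 1.43 and 467 ± 120 (SD, n = 4 each). Dusp1, a phosphatase, was the lower one, at 0.351-fold (adjusted p = 0.00996). In Sham-WM against Sham-Ad lib the same list had 1 gene called higher, Dusp1, and 4 called lower. The shares over all genes there were 3.53% higher and 3.45% lower. In the list of growth hormone and STAT5, 10 genes were tested, and Bcl6 was called higher and Prlr lower in VSG than in Sham-WM.

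Other serpins and their target proteases were counted in the same way for VSG against Sham-WM. Of 12 tested genes of the rest of clade A, 2 were called higher, close to the 15.0% of all genes: Serpina10, the inhibitor that works with protein Z against activated factor X, by 2.36-fold (adjusted p = 0.00476), and Serpina11 by 1.63-fold (adjusted p = 0.0355). Of 8 other plasma serpins, 3 were called higher, among them Serping1, the C1 inhibitor, by 1.89-fold (adjusted p = 0.00392), and Serpinf2, the antiplasmin, by 1.46-fold (adjusted p = 0.0365). Of 7 tested proteases of the kinds such serpins inhibit, 5 were called higher. They included the lysosomal cathepsins Ctsb by 1.55-fold (adjusted p = 0.00615) and Ctss by 4.13-fold (adjusted p = 0.00242). The neutrophil proteases Elane and Prtn3 were also called, with means of 0.117 ± 0.134 and 0.352 ± 0.126 CPM in Sham-WM and 14.7 ± 14.5 and 41.7 ± 35.5 in VSG. The share of genes called lower in this comparison was 11.9%, and none of these 3 lists had one.

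For each tested member, the genes most like it over the 12 libraries by Pearson r of log2 CPM were listed. For Serpina3n they were Serping1 (0.969), Clu (0.965) and Cyb561 (0.960), the first a plasma serpin and the second the secreted chaperone clusterin. For Serpina3g they were Apol10b (0.978), Myd88 (0.964), an adaptor of Toll-like receptors, and Alpk1 (0.963), a sensor kinase for a bacterial sugar. For Serpina3f they were Marcks (0.959), Kcnj16 (0.951) and Tnfrsf11a (0.949), which encodes the receptor RANK. For Serpina3k they were Thnsl2 (0.913), Smarca2 (0.899) and Map2k3 (0.898), and for Serpina3m Rreb1 (0.919), Ogfod1 (0.908) and Lman2 (0.897). No gene was among the 3 most like for more than 1 member. These values, too, pool 3 groups and carry the group differences.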

How the data were processed

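Liver poly(A) RNA of 12 mice was sequenced, and the deposited table holds raw counts per Ensembl gene and library. The authors made these counts with TopHat2 2.1.1 on mm10 and featureCounts, without normalization. They removed batch variation with RUVSeq in part of their work, which was not run here. The members and gene lists were chosen with earlier results of these data known. Genes named from a list were the 4 or fewer with the smallest p in VSG against Sham-WM, with these exceptions. Itih4, Crp, C3, Stat3, Fga and Saa2 were named after their values were seen, the last 2 as the ends of a range.

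Symbols and positions came from GENCODE M21 (mm10), which matched 45143 of 46078 IDs. With R 4.3.3, edgeR 4.0.16 and limma 3.58.1, filterByExpr (minimum count 10, minimum total 15) kept 13054 genes with at least 99.88% of each library's counts. TMM factors and group means were fitted to all 12 libraries. Contrasts were tested by quasi-likelihood, adjusted by Benjamini-Hochberg over all genes tested and called at 0.05. The script was tested on simulated data. CPM used TMM-scaled totals, and log2 CPM a prior count of 2. Without molecular identifiers, the floor of 3 counts covers counting error alone. Alternatives were DESeq2 1.42.0, relative log expression factors, no filter, fits of only the groups compared, leaving out each library, and grouping by the second label field. Transcripts were aligned with Biopython 1.88.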

Additional observations from a re-analysis of the deposited data

Results flagged for a closer look

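Serpina3g in Sham-Ad lib mouse 4F was flagged because it lay far from the other mice of its group. It was at 14.7 CPM there, while the other 3 mice were between 5.08 and 6.65, and the ratio of this gap to the whole range was 0.838, above Dixon's critical value for 4 samples. This was 1 flag among 15 groups checked, and chance flags about 1 in 20. In the same mouse, the summed macrophage markers were at 467 CPM and the summed neutrophil markers at 13.7, the highest of the 4 Sham-Ad lib mice, and Serpina3f and Serpina3i had their highest Sham-Ad lib values. The part of these cells in the value was not tested.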

How the results depend on the processing

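Of the 255 log2 fold changes of members refitted under an alternative, 170 of those with a library left out kept their direction and their side of the threshold, 9 lost the call and 1 gained it. Among the other settings, 66 kept both, 1 lost the call and 8 changed sign. All of the last 9 came from grouping libraries by the second label field. There, no member was called in Sham-WM against Sham-Ad lib (0) or VSG against Sham-WM (0). The log2 fold changes that changed sign were -0.0144 for Serpina3n in VSG against Sham-Ad lib; 0.98, 0.662, -0.118 and 0.0277 for Serpina3f, Serpina3g, Serpina3m and Serpina3n in Sham-WM against Sham-Ad lib; and -0.11, -0.0437 and -0.0422 for Serpina3g, Serpina3k and Serpina3n in VSG against Sham-WM. That grouping moves 8 of the 12 libraries to another group.

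With 1 library left out, the number of members called was 0 to 1 in VSG against Sham-Ad lib, 0 to 1 in Sham-WM against Sham-Ad lib and 2 to 3 in VSG against Sham-WM. The 1 call in VSG against Sham-Ad lib was Serpina3g without mouse 4F, and the cause was not tested. With no filter, and likewise with DESeq2, 4 members were called in VSG against Sham-WM, Serpina3i being the added one. The group means in CPM, the order by length and the motif content moved by less than the spread between mice under their alternatives. Counts of under 20 per library, as for Serpina3c, Serpina3h and Serpina3i, limit what can be seen of those genes. Protein identity between the members was not run.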
